A study of Danio rerio with 12 samples.

Results

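The difference of the ablation response between 2 and 4 days post-injury (dpi) was measured in macrophages and microglia of the zebrafish larval eye. For each gene it is the log2 ratio of ablated to unablated cells at 4 dpi minus the same log2 ratio at 2 dpi, so a value above 0 means a response that was more positive at 4 dpi. The contrast uses all 12 libraries of the series, 3 in each of 4 groups, joined gene by gene. Of 25281 genes in the deposited values, 18079 had enough counts to be tested.

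Larvae of all 4 groups were kept in 1.5X phenylthiourea, which blocks pigment formation, from 0.25 to 5 days post-fertilisation (dpf). Those of the 2 ablated groups then received 10 mM metronidazole for 24 h, from 5 to 6 dpf, and lost the retinal pigment epithelium (RPE). Those of the 2 unablated groups were left untreated, and effects of the drug cannot be told apart from those of losing the RPE. By the larval age in the titles of 2 dpi replicate 2, dpi counts from the start of the drug at 5 dpf. At each time at most 1000 cells positive for the red fluorescent protein mCherry were sorted per library from dissociated eyes, and their RNA was amplified and sequenced. The genes that drive mCherry and the ablation system are not named in the labels, and whether a library pooled several larvae is not stated. Replicates are labelled by number. The labels do not say that they came from separate batches of larvae, and the spread behind the p-values may be technical.

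The RPE is the pigmented layer behind the photoreceptors, and it supports them and takes up their shed outer segments. After injury, tissue macrophages and microglia gather at the site, engulf debris, and may divide. A macrophage that enters the cell cycle first builds ribosomes and nucleotides, then replicates its DNA, and then expresses the spindle, condensin and cyclin genes of mitosis. A difference of 2 responses can come from any of 4 group levels, so each gene below is described by the level that moved.

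Libraries held 19791633 to 38935355 counts and 16299 to 19601 genes with a count. The macrophage gene mpeg1.1 averaged 2206, 2322, 2588 and 2167 CPM (counts scaled to a common library size) in unablated 2 dpi, ablated 2 dpi, unablated 4 dpi and ablated 4 dpi cells, the order used throughout. Other macrophage or leukocyte genes were less even, and mfap4 averaged 329, 1277, 526 and 1480 CPM. Means were 148, 341, 283 and 371 CPM for ptprc, 96.0, 181, 177 and 175 for csf1ra, and 2885, 3952, 2242 and 2676 for lcp1. The RPE gene rpe65a, which encodes the isomerase of the visual cycle, had 6609 counts over the unablated and 4 over the ablated libraries at 2 dpi, and 439 and 1 at 4 dpi. Nearly all of the 6609 came from replicate 2: the 3 unablated 2 dpi libraries were at 1.37, 337.5 and 2.92 CPM, against at most 0.0987 CPM in an ablated 2 dpi library. Unablated 2 dpi replicates 1 and 2 stood apart, with 15.6% and 13.8% of their counts from a list of rod and cone genes, against 0.0511% to 4.1% in the other 10 libraries. All 4 dpi libraries carry 1 date in their titles and the 2 dpi libraries carry 3 others, so time, larval age and date cannot be told apart.

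No gene passed the test of the difference. By edgeR's quasi-likelihood test 0 of 18079 genes had an adjusted p under 0.05, and the smallest was 0.0577, for the mitotic kinesin gene kif23. An unadjusted p under 0.05 was found for 1059 genes, 5.86% of those tested, 423 with a more positive (2.34%) and 636 with a more negative (3.52%) response at 4 dpi. DESeq2 called 80 genes, 64 of them higher, and limma voom called 0. The median log2 difference over all genes was -0.01, with 49.3% of genes above 0, and its median standard error (SE) was 0.96. Among the 10284 genes with a group mean of at least 10 CPM the median SE was 0.51. With 0 counts of kif23 in each unablated 4 dpi library, its fitted log2 difference, 10.05 ± 0.93 (SE), depends on the prior count. The SE is derived from that value and depends on it too. Against a floor of 3 counts in each of those libraries, the log2 difference of its group means was at least 5.33. A difference of that size did not pass, so the lack of calls does not show equal responses. Without unablated 4 dpi replicate 2 the fit called 19 genes, all higher. Without unablated 2 dpi replicates 1, 2 or 3 it called 3, 1 and 2, and without unablated 4 dpi replicate 3 it called 3. A fit without both photoreceptor-rich libraries leaves 1 library, replicate 3, in the unablated 2 dpi group. Its values below rest on that library.

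The 2 responses that are subtracted ran partly in the same direction. Here and below a gene is said to have risen or fallen, or to be called, only where its adjusted p was under 0.05. In the same fit 1020 genes rose (5.64%) and 122 fell (0.675%) on ablation at 2 dpi, and 197 rose (1.09%) and 25 fell (0.138%) at 4 dpi. The genes that rose at both times numbered 159, which is 15.6% of the 2 dpi list and 80.7% of the 4 dpi list. Those that fell at both times numbered 10, which is 8.2% of the 2 dpi list and 40% of the 4 dpi list. No gene was called in opposite directions. Across the 18079 genes the 2 log2 responses, which share no library, correlated with a Spearman rho of 0.492 and a Pearson r of 0.349. Genes are not independent replicates here. Both counts move with single libraries. The 1142 calls at 2 dpi (6.32%) became 211 without ablated 2 dpi replicate 2, 439 without ablated 2 dpi replicate 3 and 644 without unablated 2 dpi replicate 2. The 222 calls at 4 dpi (1.23%) became 42 without unablated 4 dpi replicate 1, 41 without ablated 4 dpi replicate 1, 42 without ablated 4 dpi replicate 3 and 455 without unablated 2 dpi replicate 3. They became 138, 115 and 125 without ablated 2 dpi replicates 1, 2 and 3, 130 without unablated 4 dpi replicate 3 and 134 without ablated 4 dpi replicate 2.

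**Figure D1:**
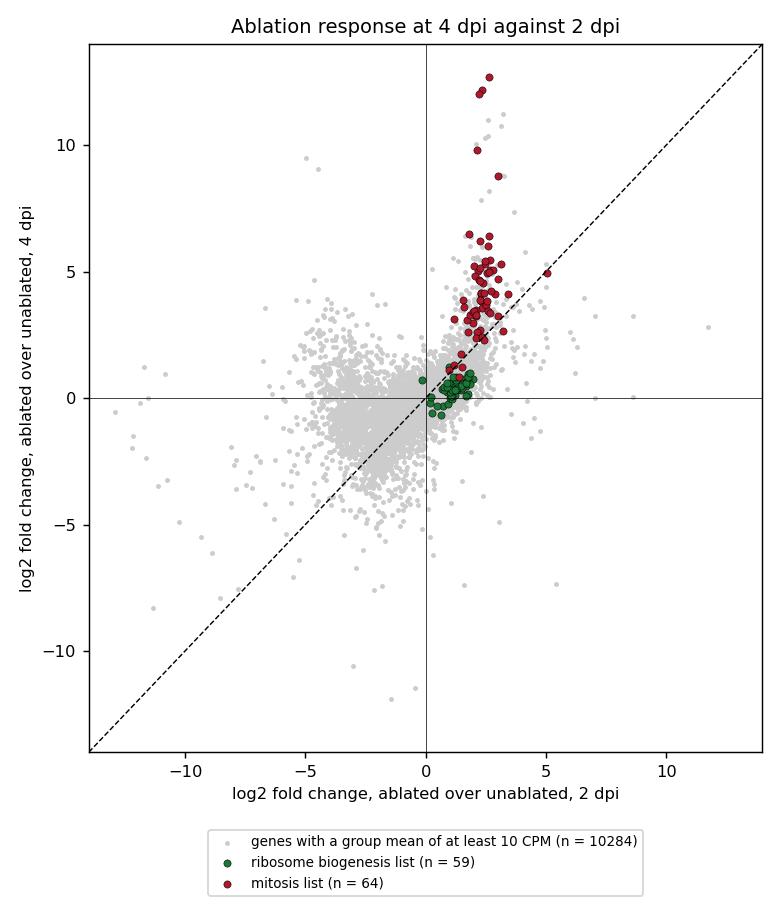
Log2 fold change of ablated over unablated cells at 4 dpi (vertical) against 2 dpi (horizontal), 1 point per gene; grey, the 10284 genes with a group mean of at least 10 CPM; red, 64 mitosis genes; green, 59 ribosome biogenesis genes; dashed line, equal responses. Red points lie mostly above the dashed line and green points below it; fitted values of genes at 0 counts in a group depend on the prior count.

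Genes of mitosis had the most positive differences of any list of macrophage or general cell genes. Of 64 such genes, all tested, 59 had a log2 difference above 0, with a median of 1.67 against -0.01 over all genes. An unadjusted p under 0.05 was found for 10 of them, 15.6% against 5.86% of all genes, every one higher, and none passed the adjusted test. The list was chosen with earlier results of these data known, so its direction is a description. Its members responded at both times, with all 64 log2 responses above 0 at each. The median response was 2.3 at 2 dpi, where 12 were called higher, and 4.1 at 4 dpi, where 18 were. Of all genes tested 5.64% were called higher at 2 dpi and 1.09% at 4 dpi. In bulk samples such as these, fewer dividing cells and less of these RNAs per cell cannot be told apart.

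The level that moved most was that of unablated cells at 4 dpi. In 49 of the 64 genes the 3 unablated 4 dpi libraries lay below all 9 others, which was so for 4.24% of all genes tested. The summed level of the list was 1931 to 2715 CPM in unablated cells at 2 dpi and 488 to 695 CPM at 4 dpi. In ablated cells it was 6831 to 9669 CPM at 2 dpi and 1952 to 3585 CPM at 4 dpi. Both conditions were thus lower at 4 dpi, and the ratio between them was larger there, over an unablated level nearer to 0. Measured as a gap in CPM, the direction turns: ablated minus unablated was smaller at 4 dpi in 63 of the 64 genes, where over all genes the signed gap was larger at 4 dpi in 46.2%.

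kif23 (ENSDARG00000014943, chromosome 18, 20435821 to 20458840 in GRCz11), a kinesin of the central spindle needed for cytokinesis, shows this pattern. It was measured at 7.13, 11 and 18.8 CPM in unablated 2 dpi libraries, 53.4, 95.7 and 80.2 in ablated 2 dpi libraries, 0 in each unablated 4 dpi library, and 36.4, 15.9 and 27.6 in ablated 4 dpi libraries. Ablated libraries lay above unablated ones at both times without overlap. The ratio of means was 6.203 at 2 dpi, and at 4 dpi ablated cells were at least 249.5-fold higher, against a floor of 3 counts in each library. The difference had an unadjusted p of 3.19e-06 and an adjusted p of 0.0577. The gap in CPM was 64.1 at 2 dpi and 26.6 at 4 dpi.

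Other cytokinesis, spindle and chromosome genes were alike. kif14, another cytokinesis kinesin, ncaph, a condensin I subunit, and aspm, a spindle pole protein, were also at 0 counts in all 3 unablated 4 dpi libraries. Against the floor of 3 counts per library they were at least 77.4-fold, 177-fold and 159.7-fold higher in ablated cells at 4 dpi, where the ratios of means at 2 dpi were 6.01, 5.04 and 4.72. Their adjusted p for the difference was 0.0679, 0.0972 and 0.134. haus4, a subunit of the augmin complex that branches spindle microtubules, had 1389 counts over the ablated and 1 over the unablated 4 dpi libraries, a ratio of 1196 with a 95% counting interval of 214 to 47287. etaa1, known in human cells as an activator of the ATR checkpoint kinase, had 1180 and 2 counts, a ratio of 508 with a 95% counting interval of 140 to 4201.

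ccnb1 encodes cyclin B1, the partner of Cdk1 at mitotic entry. Its level was 15.4, 10.1 and 28.6 CPM in unablated 2 dpi, 99.5, 172 and 166 in ablated 2 dpi, 0.0289, 0.145 and 0.0295 in unablated 4 dpi, and 39.33, 12.3 and 31.9 in ablated 4 dpi libraries. Both ablated groups lay above their unablated group, and the ablated 4 dpi libraries overlapped the unablated 2 dpi ones. Its log2 response was 3.02 ± 0.58 (SE) at 2 dpi (adjusted p = 0.0149) and 8.77 ± 0.80 at 4 dpi (adjusted p = 0.00178). The log2 difference of 5.75 ± 0.90 had an adjusted p of 0.134. spc25, a kinetochore protein of the Ndc80 complex, had mean levels of 7.70, 48.6, 0.415 and 17.9 CPM and a log2 difference of 2.78 ± 0.57 (adjusted p = 0.647).

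The size of the mitotic difference changed with the processing. With limma on log2(TPM + 1), where TPM is the authors' level per gene, scaled by length and depth, 44 of 64 genes stayed above 0 and the median was 0.34. That setting also changes the scaling, the filter and the test, and which of these moved the median was not tested. On that scale kif14 and aspm turned, to -0.047 and -0.094. Without 1 library at a time the median ran from 1.19, without unablated 4 dpi replicate 1, to 2.60, without unablated 4 dpi replicate 2. The count at an unadjusted p under 0.05 was 25 without unablated 4 dpi replicate 2 and 17 without unablated 4 dpi replicate 3. The shares of all genes in those fits are not given here, so these counts have no background beside them. Without both photoreceptor-rich libraries, which leaves 1 unablated 2 dpi library, the median was 2.22.

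DNA replication genes, which act before mitosis, were closer to an equal response at both times. Of 62 genes, all tested, 45 had a log2 difference above 0, with a median of 0.44, and 4 higher and 1 lower had an unadjusted p under 0.05 (8.06% against 5.86% of all genes). The list median of the log2 response was 1.75 at 2 dpi, where 24 were called higher (5.64% of all genes were). It was 2.09 at 4 dpi, where 19 were called higher (1.09% of all genes were). Responses above 0 numbered 62 at 2 dpi and 60 at 4 dpi. The gap in CPM was smaller at 4 dpi in 61 of 62. ccne2, a cyclin E that drives entry into S phase, averaged 11.7 ± 4.07 (SD, n = 3), 27.7 ± 13.6, 0.728 ± 0.671 and 14.2 ± 2.01 CPM. Its log2 difference was 3.06 ± 1.101 (SE, adjusted p = 0.811), and unablated 4 dpi cells were again the level apart. timeless, which protects replication forks, went the other way, with mean levels of 12.13, 29.3, 19 and 17.3 CPM and a log2 difference of -1.41 ± 0.48 (adjusted p = 0.811). Here the ablated 4 dpi libraries, at 17.1 to 17.6 CPM, lay among the unablated 4 dpi ones, at 11.6 to 30.7 CPM.

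**Figure D2:**
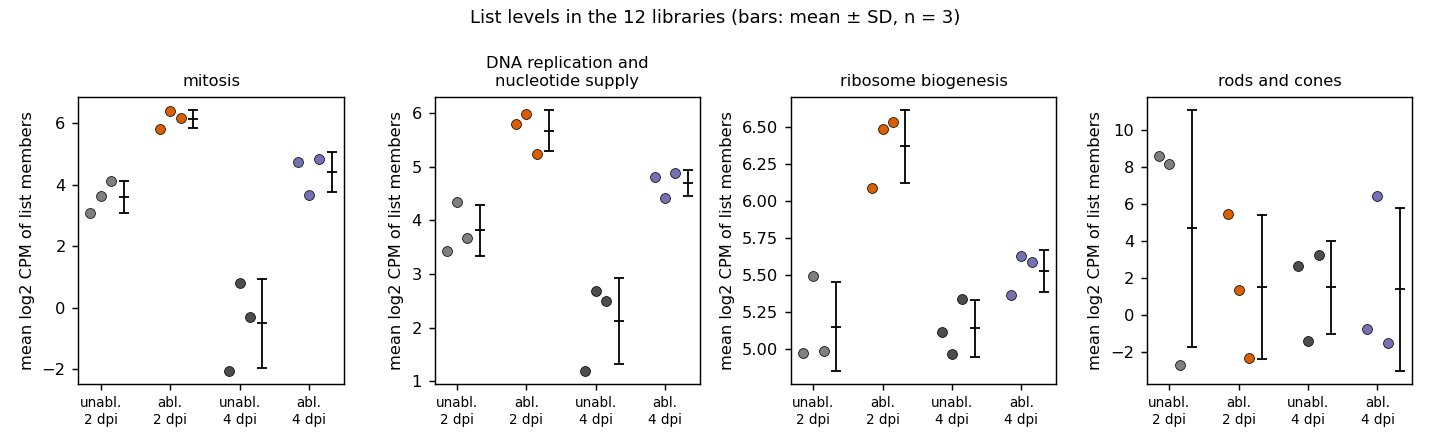
Mean log2 CPM over the tested members of 4 gene lists in each of the 12 libraries (points), with mean ± SD over the 3 libraries of a group (bars). Mitosis is lowest in unablated 4 dpi cells, ribosome biogenesis stands highest in ablated 2 dpi cells, and rods and cones vary as much within groups as between them.

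Genes of ribosome biogenesis had the most negative differences, and the level that moved was that of ablated cells at 2 dpi. Of 59 genes, all tested, 57 had a log2 difference below 0, with a median of -0.92. An unadjusted p under 0.05 was found for 32, all lower, which is 54.2% of the list against 5.86% of all genes. None passed the adjusted test. This list too was chosen with earlier results of these data known, so its direction and share are descriptions. At 2 dpi 58 of the 59 responses to ablation were above 0, with a list median of 1.21. There 33 genes were called higher, against 5.64% of all genes. At 4 dpi 51 of the 59 responses were above 0, with a list median of 0.42. There 1 gene was called higher, a share near the 1.09% of all genes. In 45 of the 59 the 3 ablated 2 dpi libraries lay above all 9 others, which was so for 6.36% of all genes.

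The summed level of the list was 2848 to 3974 CPM in unablated and 6532 to 8821 CPM in ablated cells at 2 dpi. At 4 dpi it was 3240 to 3890 CPM in unablated and 3924 to 4563 CPM in ablated cells. Unablated cells of the 2 times overlapped, and ablated 4 dpi cells lay just above the unablated 4 dpi range. Under each of the 22 alternatives 55 to 58 of the 59 genes stayed below 0, with medians from -1.14 to -0.71. These fits reuse the same libraries.

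nolc1 (ENSDARG00000024561, chromosome 13, 4973211 to 4992395 in GRCz11) encodes a nucleolar phosphoprotein that accompanies small nucleolar ribonucleoproteins. Its level was 33, 69.2 and 34.6 CPM in unablated 2 dpi, 108, 179 and 177 in ablated 2 dpi, 63.0, 56.9 and 70.4 in unablated 4 dpi, and 69.5, 72.8 and 71.5 in ablated 4 dpi libraries. The ablated 2 dpi libraries lay above all others, and the 2 groups at 4 dpi met between 69.5 and 70.4 CPM. The log2 response was 1.76 ± 0.30 (SE) at 2 dpi (adjusted p = 0.0109) and 0.17 ± 0.29 at 4 dpi (adjusted p = 0.884). The log2 difference was -1.59 ± 0.42, with a 95% interval of -2.51 to -0.67 and an adjusted p of 0.811.

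pno1, an assembly factor of the small ribosomal subunit, had the smallest p of the list but moved through another group. It averaged 59.8 ± 12.08 (SD, n = 3), 99.4 ± 15, 113 ± 7.11 and 90.9 ± 3.89 CPM, so unablated 2 dpi cells were the level apart, below all others. Its log2 difference was -1.04 ± 0.26 (SE, adjusted p = 0.811). At 4 dpi the 3 ablated libraries lay below the 3 unablated ones, with a log2 response of -0.31 ± 0.18 (adjusted p = 0.474).

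Several of the 12 genes named for the smallest p among the more negative differences were highest in ablated 2 dpi cells. prps1a, a phosphoribosyl pyrophosphate synthetase that feeds nucleotide synthesis, was at 100, 98.3 and 64.0 CPM in unablated 2 dpi, 229, 281 and 259 in ablated 2 dpi, 126, 124 and 136 in unablated 4 dpi, and 169, 137 and 144 in ablated 4 dpi libraries. The ablated 2 dpi libraries lay above all others, and at 4 dpi the ablated libraries lay just above the unablated ones. Its log2 response was 1.55 ± 0.19 at 2 dpi (adjusted p = 0.00424) and 0.22 ± 0.18 at 4 dpi (adjusted p = 0.660), a difference of -1.33 ± 0.26 (adjusted p = 0.547).

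eif6, which keeps large ribosomal subunits from joining too early, averaged 101, 251, 115 and 159 CPM, with a log2 difference of -0.86 ± 0.20 (SE, adjusted p = 0.811). pa2g4b, a proliferation-associated protein of the nucleolus in mammals, averaged 106, 284, 120 and 159 CPM, with a log2 difference of -1.01 ± 0.21 (adjusted p = 0.738). dph5, an enzyme of diphthamide synthesis on elongation factor 2, averaged 29.4, 75.5, 31.4 and 30.1 CPM, and its 4 dpi groups overlapped. usp1, a deubiquitinase of DNA repair factors, averaged 38.49, 101, 47.5 and 51.6 CPM, and its 4 dpi groups also overlapped. tert, the catalytic subunit of telomerase, averaged 3.61, 14.1, 7.78 and 3.91 CPM. All 5 rose at 2 dpi, with adjusted p from 0.00424 to 0.0324, none was called at 4 dpi, and none passed the test of the difference. hnrnpa0b, an RNA-binding protein, was highest in ablated 2 dpi cells too, at 888 ± 130 CPM (SD, n = 3) against means of 245 to 339 CPM in the other groups.

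Lists of translation genes leaned to the negative side, and a list of purine synthesis genes was more evenly split. These lists were written after the values had been seen and add no independent evidence. The shares below stand against 5.86% of all genes at an unadjusted p under 0.05. Of 22 cytosolic aminoacyl-tRNA synthetase genes, which charge tRNAs for translation, 22 had a log2 difference below 0 (median -0.74, 7 at an unadjusted p under 0.05, 31.8%). Of 51 translation initiation and elongation factor genes, 45 were below 0 (median -0.42, 10 at an unadjusted p under 0.05, 19.6%). Of 25 genes of purine synthesis and the folate cycle, 15 were below 0 and 10 above (median -0.40, quartiles -0.96 and 0.63). Of these 25, 2 higher and 5 lower had an unadjusted p under 0.05 (28%).

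The protein components of the ribosome and proteasome had smaller differences. Of 85 cytosolic ribosome genes 78 were below 0, with a median of -0.23, and of 40 proteasome genes 38 were below 0, with a median of -0.26. At an unadjusted p under 0.05 were 2 (2.35%) and 5 (12.5%), all lower, against 5.86% of all genes. On ablation all 40 proteasome responses were above 0 at both times. Called higher were 25 at 2 dpi and 2 at 4 dpi, against 5.64% and 1.09% of all genes. Ablated 2 dpi libraries lay above all others in 18 proteasome genes (6.36% of all genes), and unablated 4 dpi ones below in 20 (4.24%). Unablated 2 dpi libraries lay below all others in 33 ribosome genes (2.04% of all genes). DESeq2's size factors shift the median of all genes from -0.01 to 0.19. With them 55 of 85 and 26 of 40 stayed below 0 and the medians were -0.03 and -0.06, which are below the shifted median of all genes. psmd11a, a subunit of the proteasome's regulatory particle, averaged 52.3, 131, 59.1 and 72.1 CPM. It rose at 2 dpi (log2 1.33, adjusted p = 0.0127), and its log2 response at 4 dpi was 0.29 (adjusted p = 0.668).

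**Figure D3:**
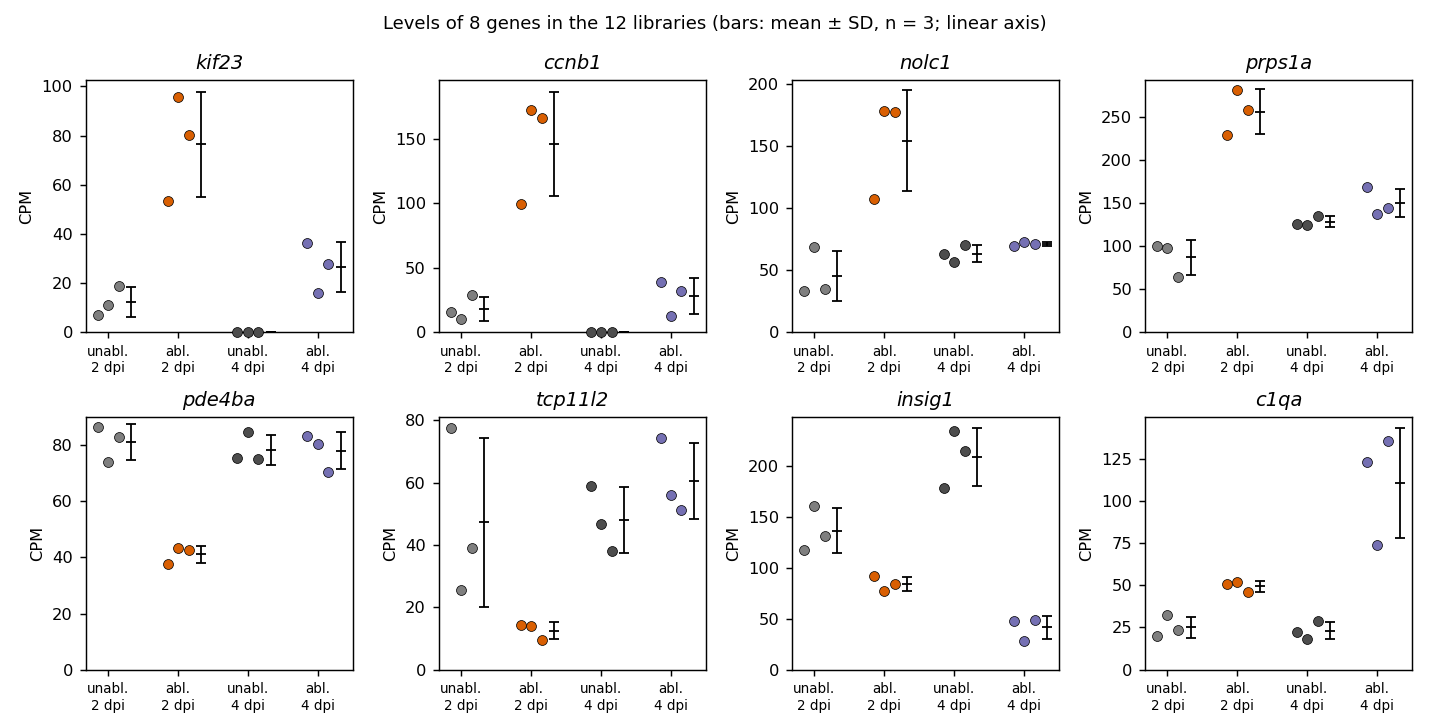
CPM of 8 genes in each of the 12 libraries (points; linear axis from 0), with mean ± SD over the 3 libraries of a group (bars). kif23 and ccnb1 are near 0 in unablated 4 dpi cells, nolc1 and prps1a are highest in ablated 2 dpi cells, pde4ba and tcp11l2 are lowest there, insig1 is lowest and c1qa highest in ablated 4 dpi cells.

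Another set of genes had its lowest level in ablated cells at 2 dpi. Of the 423 genes with a more positive difference at an unadjusted p under 0.05, the ablated 2 dpi libraries lay below all others in 61, or 14.4% against 1.26% of all genes tested. These genes were chosen by the same contrast, so the share is a description. In 83 of the 423 (19.6% against 4.24%) the unablated 4 dpi libraries lay below all others, as in the mitosis genes.

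pde4ba (ENSDARG00000032868, chromosome 6, 30851545 to 30954268 in GRCz11) encodes a phosphodiesterase that degrades cyclic AMP. Its level was 86.4, 73.8 and 82.7 CPM in unablated 2 dpi, 37.7, 43.3 and 42.4 in ablated 2 dpi, 75.5, 84.5 and 75 in unablated 4 dpi, and 83, 80.3 and 70.5 in ablated 4 dpi libraries. The ablated 2 dpi libraries lay below all 9 others, which overlapped each other. It fell at 2 dpi, with a log2 response of -0.98 ± 0.14 (SE, adjusted p = 0.00603), and at 4 dpi the response was -0.01 ± 0.14 (adjusted p = 0.992). The log2 difference was 0.97 ± 0.20, with a 95% interval of 0.53 to 1.41 and an adjusted p of 0.647.

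tcp11l2 was at 77.6, 25.4 and 39.0 CPM in unablated 2 dpi, 14.2, 13.9 and 9.54 in ablated 2 dpi, 59.0, 46.8 and 38.0 in unablated 4 dpi, and 74.3, 56.1 and 51.2 in ablated 4 dpi libraries. The ablated 2 dpi libraries lay below all others, and the 4 dpi groups overlapped. It fell at 2 dpi (log2 -1.91, adjusted p = 0.0184), and its log2 difference was 2.25 ± 0.53 (adjusted p = 0.811). tp53inp1, a p53 target linked to autophagy in mammals, averaged 22.7, 5.70, 26.1 and 26.0 CPM and also fell at 2 dpi (log2 -1.995, adjusted p = 0.0279), with a log2 difference of 1.99 ± 0.61 (adjusted p = 0.811).

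loxl2b, a lysyl oxidase of the extracellular matrix, combined a low ablated level at 2 dpi with a change over time in both conditions. It was at 10.0, 9.16 and 3.18 CPM in unablated 2 dpi, 1.19, 1.02 and 0.652 in ablated 2 dpi, 36.2, 50.8 and 25.3 in unablated 4 dpi, and 33.6, 31.1 and 24.8 in ablated 4 dpi libraries. Both 4 dpi groups lay above both 2 dpi groups and overlapped each other. It fell on ablation at 2 dpi (log2 -2.96, adjusted p = 0.00787) and the log2 response at 4 dpi was -0.33 (adjusted p = 0.832). Its log2 difference was 2.64 ± 0.62 (SE, adjusted p = 0.811), while the gap in CPM was nearly the same at both times, at -6.50 and -7.57.

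lnpk, which shapes junctions of the endoplasmic reticulum, averaged 23.4 ± 5.93 (SD, n = 3), 13.8 ± 1.17, 8.79 ± 1.95 and 17.5 ± 1.37 CPM. Its log2 response was -0.76 at 2 dpi (adjusted p = 0.124) and 0.99 at 4 dpi (adjusted p = 0.111), so neither was called, and the difference was 1.76 ± 0.38 (SE, adjusted p = 0.738).

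A further set had its difference from a low level in unablated cells at 2 dpi. Of the 636 genes with a more negative difference at an unadjusted p under 0.05, the unablated 2 dpi libraries lay below all others in 109, or 17.1% against 2.04% of all genes, and the ablated 2 dpi libraries above all others in 229, or 36% against 6.36%. These genes too were chosen by the same contrast, which favours such levels, so both shares are descriptions. antxr2a, a cell surface receptor for collagen that also binds anthrax toxin, had the smallest p among the lower genes. It was at 12.6, 9.16 and 8.34 CPM in unablated 2 dpi, 46.0, 66.7 and 64.2 in ablated 2 dpi, 27.2, 41.2 and 34 in unablated 4 dpi, and 29.9, 28.9 and 53.5 in ablated 4 dpi libraries. The 4 dpi groups overlapped, and the unablated 2 dpi libraries lay below all others. It rose at 2 dpi (log2 2.56 ± 0.31, adjusted p = 0.00424), with a log2 difference of -2.42 ± 0.42 (adjusted p = 0.264).

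The photoreceptor-rich libraries are unablated 2 dpi replicates 1 and 2. In replicate 3, with 0.0942% of its counts from rod and cone genes, antxr2a was at 8.34 CPM, the lowest of the 12. That library had 4.24% of its counts from a list of epithelial genes, the highest share of the 12. Its macrophage and leukocyte genes were mixed. It had the lowest levels of mfap4 and ptprc, at 155 and 87.6 CPM, and the highest of lcp1, at 5362 CPM. mpeg1.1 was at 2545 CPM, and the macrophage identity list held 8.36% of its counts, the highest share of the 12. Whether other cells in these libraries set the unablated 2 dpi levels was not tested. pcbd1, which recycles the tetrahydrobiopterin cofactor, averaged 20.2, 61.7, 76.0 and 59.4 CPM, and was at 17.2 CPM in replicate 3. abi1a, a subunit of the WAVE complex that promotes actin branching, averaged 26.3, 50.7, 57.5 and 48.1 CPM, and was at 24.8 CPM in replicate 3. Their log2 differences were -1.96 ± 0.42 and -1.21 ± 0.27 (adjusted p = 0.738 and 0.776).

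The list of repair and matrix genes held a larger change of this kind. anxa2a, an annexin of membrane repair, was at 5.08, 0.156 and 3.89 CPM in unablated 2 dpi, 131, 306 and 290 in ablated 2 dpi, 30.5, 81.7 and 29.9 in unablated 4 dpi, and 222, 90.6 and 257 in ablated 4 dpi libraries. Ablated libraries lay above unablated ones at both times. It rose at 2 dpi (log2 6.31 ± 1.098, adjusted p = 0.0119), its response at 4 dpi was 2.00 ± 0.90 (adjusted p = 0.347), and the difference was -4.31 ± 1.29 (adjusted p = 0.811). cd276, an immune checkpoint protein of the B7 family, followed the same order, with means of 1.87, 42.6, 9.42 and 31.4 CPM. slc7a11, the cystine importer of glutathione synthesis, averaged 0.895, 14.7, 11.13 and 5.70 CPM and rose at 2 dpi (log2 4.04, adjusted p = 0.0485). sptlc2a, a subunit of the first enzyme of sphingolipid synthesis, averaged 42.2, 118, 119 and 160 CPM, and it rose between the times in unablated cells (log2 1.50, adjusted p = 0.00978), a contrast that called 157 genes (0.868%).

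In another group of named genes the ablated 4 dpi level was the lowest or highest of the 4. insig1 (ENSDARG00000010658, chromosome 7, 41007773 to 41014773 in GRCz11) encodes an endoplasmic reticulum protein that restrains sterol synthesis and is itself switched on when sterols are low. Its level was 118, 161 and 131 CPM in unablated 2 dpi, 91.5, 77.6 and 84.2 in ablated 2 dpi, 178, 234 and 215 in unablated 4 dpi, and 48.0, 28.2 and 48.6 in ablated 4 dpi libraries. Ablated libraries lay below unablated ones at both times, and the 4 groups did not overlap each other. From 2 to 4 dpi the unablated level was higher and the ablated level lower, so both entered the difference. On ablation insig1 fell at 4 dpi (log2 -2.33 ± 0.23, adjusted p = 0.00347), and its response at 2 dpi was -0.69 ± 0.22 (adjusted p = 0.0985). The log2 difference was -1.63 ± 0.32, with a 95% interval of -2.34 to -0.93 and an adjusted p of 0.547.

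A list of 27 tested sterol synthesis genes, written after these values had been seen and holding insig1 itself, had 20 below 0 and a median of -0.82. At an unadjusted p under 0.05 there were 6 lower and 2 higher, which is 29.6% of the list against 5.86% of all genes. The list median of the response was -0.22 at 2 dpi and -0.65 at 4 dpi. At 4 dpi 19 of the 27 responses were below 0, and insig1 was the 1 member called lower.

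Complement genes of the C1q complex, which tags debris and synapses for uptake, stood highest in ablated 4 dpi cells. c1qa was at 20.01, 32.2 and 23.6 CPM in unablated 2 dpi, 50.8, 51.9 and 45.8 in ablated 2 dpi, 22.5, 18.3 and 28.8 in unablated 4 dpi, and 123, 73.7 and 135 in ablated 4 dpi libraries. Ablated libraries lay above unablated ones at both times, and the ablated 4 dpi libraries lay above all others. The log2 response was 0.97 ± 0.27 at 2 dpi (adjusted p = 0.0612) and 2.25 ± 0.28 at 4 dpi, where it rose (adjusted p = 0.00684), and the difference was 1.28 ± 0.38 (adjusted p = 0.811). c1qb averaged 115, 181, 121 and 359 CPM, with a log2 difference of 0.93 ± 0.46 (adjusted p = 0.852). Of 16 tested complement genes 7 were above 0 and 9 below, so the C1q pattern did not extend over the list.

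Other named genes were also highest in ablated 4 dpi cells. p2rx7, a channel gated by extracellular ATP, was at 32.9, 18.1 and 19.5 CPM in unablated 2 dpi, 35.3, 15.2 and 17.8 in ablated 2 dpi, 53.9, 46.8 and 46.8 in unablated 4 dpi, and 133, 98.1 and 105 in ablated 4 dpi libraries. The 2 dpi groups overlapped and the ablated 4 dpi libraries lay above all others. Its log2 response was -0.04 ± 0.33 at 2 dpi and 1.19 ± 0.33 at 4 dpi (adjusted p = 0.942 and 0.126), and the difference was 1.23 ± 0.47 (adjusted p = 0.811). cxcr4b, the receptor for the chemokine Cxcl12, averaged 411, 362, 492 and 793 CPM, with a log2 difference of 0.87 ± 0.27 (adjusted p = 0.811).

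btg1, an antiproliferative gene, averaged 413, 275, 599 and 699 CPM, and sesn1, a stress gene that restrains growth signalling through mTORC1, averaged 251, 147, 495 and 634 CPM. Their log2 differences were 0.81 ± 0.26 and 1.13 ± 0.38 (SE, both adjusted p = 0.811). In ablated cells both rose from 2 to 4 dpi, by log2 1.35 and 2.11 (both adjusted p = 0.0214). That contrast called 234 genes (1.29%), and 0 without ablated 2 dpi replicate 2 or 3 or without any 1 of the 3 ablated 4 dpi libraries.

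runx3, a transcription factor of leukocyte differentiation, was lowest in ablated 4 dpi cells, with means of 58.2, 36.4, 71.1 and 16.3 CPM. It fell at 4 dpi (log2 -2.13, adjusted p = 0.0395), with a log2 difference of -1.45 ± 0.56 (adjusted p = 0.811). myd88, the adaptor of Toll-like receptors, averaged 83.1, 97.3, 122 and 59.3 CPM, and its log2 response was 0.23 at 2 dpi and -1.04 at 4 dpi (adjusted p = 0.592 and 0.0798). Its log2 difference was -1.27 ± 0.35 (adjusted p = 0.811).

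Several lists of macrophage function leaned slightly to the negative side, where 49.3% of all genes were above 0, and others did not. Of 48 macrophage identity genes 38 had a log2 difference below 0 (median -0.30), as did 29 of 40 efferocytosis and phagocytosis genes (median -0.32) and 44 of 68 lysosome and cathepsin genes (median -0.16). Below 0 were also 19 of 28 type I interferon genes (median -0.31), 23 of 36 inflammatory cytokines and mediators (median -0.20) and 21 of 35 microglia genes (median -0.21). Between 1.47% and 6.25% of their members had an unadjusted p under 0.05, against 5.86% of all genes. With DESeq2's size factors these 6 medians ran from -0.13 to 0.06, all below the shifted median of all genes. Of 36 antigen presentation genes 23 were below 0 (median -0.35), and 8.33% had an unadjusted p under 0.05. Medians were above 0 for phagocyte oxidase (0.17, 5 of 8 genes above 0) and lipid and sterol handling (0.20, 27 of 50). The same held for purinergic and neuronal sensing (0.19, 13 of 21).

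Oxidative phosphorylation genes leaned to the positive side, and most were lowest in unablated 4 dpi cells. Their mean log2 CPM was 7.01, 6.58 and 6.33 in unablated 2 dpi replicates 1, 2 and 3. Of 98 nuclear genes 78 were above 0 (median 0.20), and in 61 the unablated 4 dpi libraries lay below all others, against 4.24% of all genes. An unadjusted p under 0.05 was found for 5 of the 98, or 5.1%, near the 5.86% of all genes. ndufb9, a subunit of complex I, averaged 307, 302, 167 and 258 CPM, with a log2 difference of 0.65 ± 0.23 (SE, adjusted p = 0.811), and it fell between the times in unablated cells (log2 -0.87, adjusted p = 0.0447). Without both photoreceptor-rich libraries, which leaves 1 unablated 2 dpi library, 38 of 98 were above 0 and the median was -0.06. Without unablated 2 dpi replicate 1 alone 54 of 98 were above 0, with a median of 0.04. Photoreceptors are rich in these transcripts, and the part of the photoreceptor reads in this result was not tested further.

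**Figure D4:**
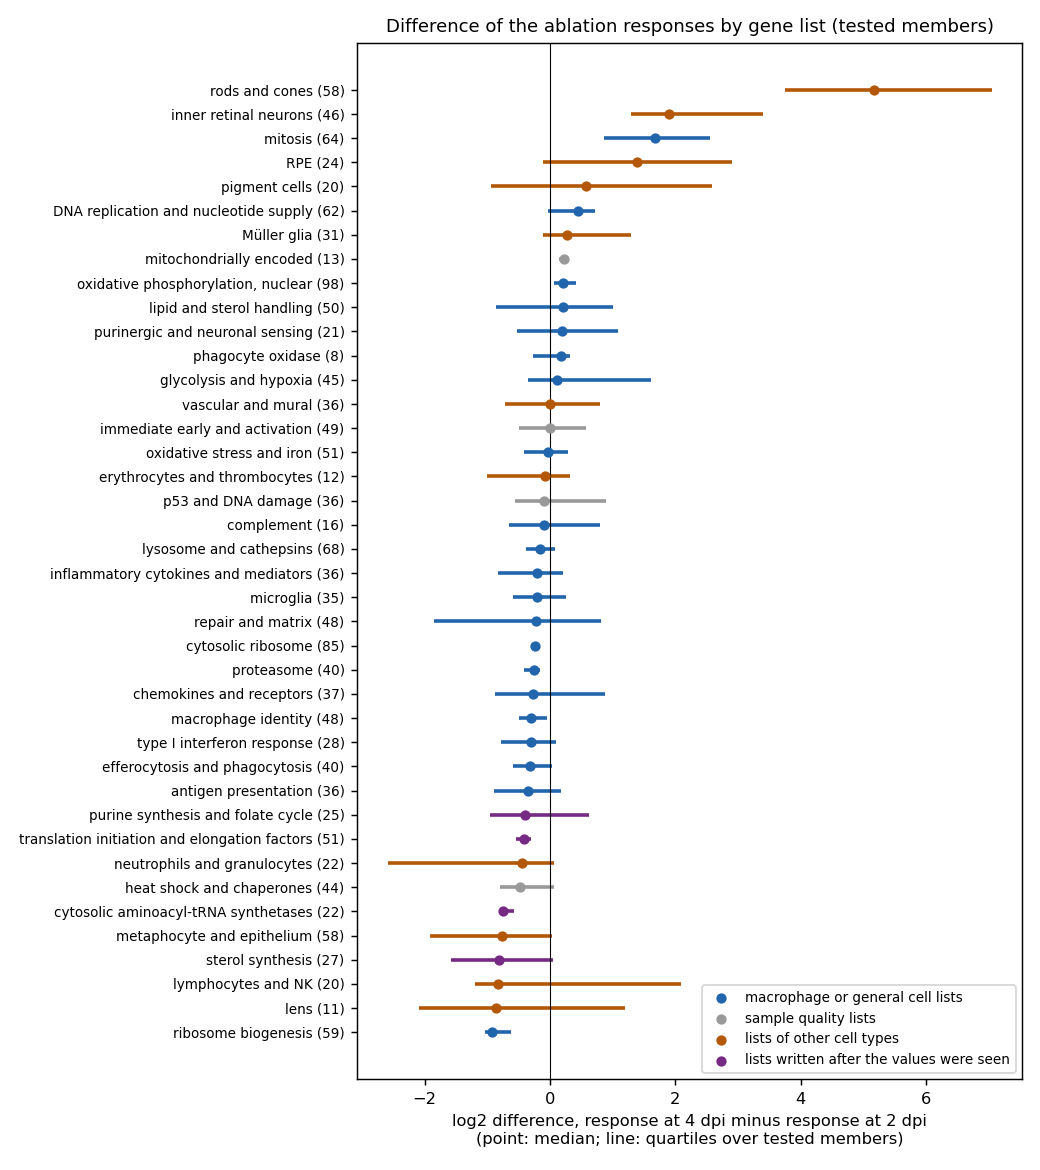
Median (points) and quartiles (lines) of the log2 difference, response at 4 dpi minus response at 2 dpi, over the tested members of 40 gene lists, with the number of tested members in brackets; colours give the kind of list. Mitosis is the most positive and ribosome biogenesis the most negative list of macrophage or general cell genes, and rods and cones have the most positive median of all.

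Genes of other eye cells had the largest median, and it rested on single libraries. All 58 tested rod and cone genes had a log2 difference above 0 (median 5.17), with 3 at an unadjusted p under 0.05 (5.17%). Their summed level was 168572, 142220 and 985 CPM in unablated 2 dpi, 20232, 2984 and 767 in ablated 2 dpi, 6877, 836 and 7671 in unablated 4 dpi, and 601, 37679 and 512 in ablated 4 dpi libraries. Within every group the highest library lay many times above the lowest, and the groups overlapped at both times. The median was -0.80 without ablated 4 dpi replicate 2. It was -8.17 without unablated 2 dpi replicates 1 and 2, which leaves 1 library in that group. opn1sw2, the blue cone opsin, averaged 4084 ± 3541 (SD, n = 3), 377 ± 260, 106 ± 19.99 and 710 ± 1208 CPM, with a log2 difference of 6.18 ± 2.52 (SE, adjusted p = 0.833).

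Epithelial genes, which also mark metaphocytes, the macrophage-like cells of epithelial origin in zebrafish, had 43 of 58 below 0 and a median of -0.77. Of the 58, 3 had an unadjusted p under 0.05, all lower, or 5.17% against 5.86% of all genes. Their summed level was 7980, 19100 and 44353 CPM in unablated 2 dpi libraries and 11786 to 19772 CPM in ablated 2 dpi libraries. At 4 dpi it was 17322 to 24351 CPM in unablated and 13993 to 14351 CPM in ablated libraries. The adhesion gene epcam was at 169, 1125 and 3542 CPM in unablated 2 dpi, 218, 34.5 and 908 in ablated 2 dpi, 974.6, 1196 and 1105 in unablated 4 dpi, and 93.3, 258 and 140 in ablated 4 dpi libraries. The groups overlapped at 2 dpi, and at 4 dpi the ablated libraries lay below the unablated ones. Of 22 tested genes also known from neutrophils and granulocytes 16 had a log2 difference below 0 (median -0.44). At an unadjusted p under 0.05 were 3, all lower, or 13.6% against 5.86% of all genes. Among them srgn, which encodes the granule proteoglycan serglycin, averaged 71.2, 311, 94.8 and 164 CPM. It rose at 2 dpi (log2 2.13, adjusted p = 0.00566) and had a log2 difference of -1.34 ± 0.41 (adjusted p = 0.811). The neutrophil peroxidase gene mpx was at 0 counts in unablated 2 dpi and at 7.95, 0 and 33.7 CPM in ablated 2 dpi libraries. Its 4 dpi level was 0, 2.22 and 0 CPM without ablation and 14.4, 0.0289 and 0.856 CPM with it, and the groups overlapped at both times. Another neutrophil gene, lyz, was near 0 throughout, with group totals of 2, 2, 0 and 13 counts. With all genes of the lists of other cell types removed, the fit called 0 genes (1084 at an unadjusted p under 0.05), the mitosis median was 1.66 and the ribosome biogenesis median was -0.93.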

How the data were processed

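Per the file headers, the authors deposited raw counts and TPM (levels scaled by gene length and depth) for each gene, in 1 table per time. Both were joined by gene identifier. GRCz11 is the assembly per the submitters' processing notes; no source used here names the aligner, counter or annotation. The libraries do not mark strand, so overlapping genes cannot be told apart.

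Counts of all 12 libraries were fitted by edgeR 4.0.16 (quasi-likelihood, robust, TMM, filterByExpr, 4 group means; R 4.3.3), with Benjamini-Hochberg adjustment over 18079 genes and a threshold of 0.05. CPM use TMM-scaled library sizes. The script was tested on simulated data, where recovery of planted differences was required only at a low spread (dispersion 0.05). The common dispersion of these data was 0.884, so that check does not show what this fit can detect. Differences were also planted at the spread of these data, and their recovery is not reported here. Each SE is the size of the fitted log2 value divided by the square root of the test's F, and intervals of log2 values use it. For genes at or near 0 counts in a group, both depend on the prior count. Intervals are 95%, and those of count ratios (exact) cover counting error only. Alternatives numbered 22, with DESeq2 1.42.0 and limma 3.58.1 among them.

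Of 1492 symbols in 36 lists, 81 were not matched; 4 lists were added later. Members and lists were chosen with earlier results of these data known. Named genes were the 12 smallest p-values in each direction (group mean of at least 10 CPM, no placeholder symbol) and 2 per list. The genes epcam, mpx, lyz, mfap4, ptprc and lcp1 are cell type markers.

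At 2 dpi same-numbered libraries share a date in their titles, and their deviations from group means correlated at r = 0.59, 0.03 and 0.57. Replicates 1 and 3 at 2 dpi, when crossed, gave -0.53 and -0.59. At 4 dpi same-numbered libraries were at -0.16, -0.40 and -0.14, with no stated pairing. The fit reported did not pair libraries at either time, and the replicate block used as an alternative paired by number at both.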

Additional observations from a re-analysis of the deposited data

How the results depend on the processing

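Called genes for the difference numbered 0 in the fit reported, 3 with DESeq2's size factors, 5 with no filter, 80 with DESeq2, 6 with the rod and cone share as a covariate, 66 without both photoreceptor-rich libraries, 0 under the strict filter, limma voom and log2(TPM + 1), and 0 to 19 without 1 library. kif23 was called in 9 alternatives, more than any other gene. Ablation at 2 dpi (1142) gave 682 with size factors, 622 with no filter, 2395 with DESeq2, 2721 with voom, 2394 on log2(TPM + 1), and 211 to 1254 without 1 library. Ablation at 4 dpi (222) gave 1329 with DESeq2, 1846 with voom, 695 on log2(TPM + 1), 487 without both photoreceptor-rich libraries, 350 with the covariate, and 41 to 455 without 1 library. The time contrast in unablated cells (157) gave 281 with size factors, 260 with the strict filter, 1402 with DESeq2, 382 with voom, 765 on log2(TPM + 1), 507 without both libraries, 285 with the covariate, and 14 to 493 without 1 library. That in ablated cells (234) gave 113 with no filter, 355 with the strict filter, 1174 with DESeq2, 2000 with voom, 448 on log2(TPM + 1), 656 without both libraries, 434 with the covariate, and 0 to 448 without 1 library. The causes of these shifts were not tested.

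With a replicate block within time the difference had 0 calls, ablation at 2 dpi 885 and ablation at 4 dpi 55, and the mitosis median was 2.60. At 4 dpi same-numbered libraries share a number and no stated pairing.

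Of the named genes' values under the alternatives 1808 kept their direction and side of the threshold, 48 became calls and 14 reversed; of list medians 779 stayed within the spread and 90 did not. Reversed were kif14 (-0.047) and aspm (-0.094) on log2(TPM + 1), and ncf1 with voom (-0.099) and on log2(TPM + 1) (-0.01). Without 1 library ncf1 ran from -0.422 to 0.769, rac2 from -0.934 to 0.039, blvrb from -0.09 to 0.569 and rpe65a from -2.779 to 4.298. Without both photoreceptor-rich libraries, which leaves 1 unablated 2 dpi library, rac2 (0.481), gad1b (-2.48), rgrb (-6.783), pecam1 (-5.28) and rpe65a (-2.343) reversed. With the covariate rpe65a did so too (-0.924). None was called under a setting in which it reversed.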

Other observations

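Of 44 tested heat shock and chaperone genes 32 had a log2 difference below 0 (median -0.49), and 2 had an unadjusted p under 0.05, or 4.55% against 5.86% of all genes. On ablation 34 of the 44 responses were above 0 at 2 dpi and 31 at 4 dpi. Called higher were 11 at 2 dpi, against 5.64% of all genes, and 0 at 4 dpi, against 1.09%. cct4, a subunit of the chaperonin that folds actin and tubulin, averaged 402, 724, 378 and 479 CPM in unablated 2 dpi, ablated 2 dpi, unablated 4 dpi and ablated 4 dpi cells. It rose at 2 dpi (log2 0.85, adjusted p = 0.0138), with a log2 difference of -0.51 ± 0.22 (SE, adjusted p = 0.837). Of 45 tested glycolysis and hypoxia genes 25 were above 0 and 20 below (median 0.11). aldoaa, a glycolytic aldolase, averaged 445, 878, 514 and 737 CPM and rose at 2 dpi (log2 0.98, adjusted p = 0.0108), with a log2 response of 0.52 at 4 dpi (adjusted p = 0.171). pdk2b, a kinase that restrains pyruvate entry into mitochondria, averaged 77.5, 53.1, 135 and 318 CPM, and its log2 difference was 1.78 ± 0.70.

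Among immune genes, il2rga, the common gamma chain of cytokine receptors, averaged 110, 230, 212 and 250 CPM, rose at 2 dpi (log2 1.06, adjusted p = 0.0109) and had a log2 difference of -0.83 ± 0.25. gbp1, an interferon-induced GTPase, averaged 58.9, 141, 79.0 and 101 CPM and rose at 2 dpi (log2 1.26, adjusted p = 0.0220). pnp5a, a purine nucleoside phosphorylase, averaged 12.4, 52.9, 20.6 and 18.4 CPM, with a log2 difference of -2.25 ± 0.68, and its ablated 2 dpi libraries lay above all 9 others. gsto2, a glutathione transferase, averaged 195, 162, 115 and 336 CPM, with a log2 difference of 1.81 ± 0.57. csf1ra, the receptor for macrophage colony-stimulating factor, averaged 96.0, 181, 177 and 175 CPM, with unablated 2 dpi cells below all others and a log2 difference of -0.93 ± 0.39. None of these differences passed the adjusted test by edgeR.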
